A study of Mus musculus with 8 samples.

Results

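Interferon-stimulated genes are the genes that cells switch on when an interferon binds its receptor, and this report follows 40 of them in the livers of mice made to lack *Usp39* in hepatocytes. The members are every gene of the deposited table whose symbol is on a list of 40 well-known mouse interferon-stimulated genes. The list uses no measured value, but it was chosen with earlier results of these data known. All 40 were in the table, out of 55385 gene identifiers, and 39 of them had at least 1 count in at least 1 liver. *Usp39* encodes a protein of the spliceosome. In the *Usp39*-HKO mice, exon 2 of *Usp39* was flanked by loxP sites and removed by an albumin-Cre transgene, whose promoter is active in hepatocytes. Loss of *Usp39* by cell type was not measured here.

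Type I interferons (the interferon-alpha family and interferon-beta) signal through the receptor made of Ifnar1 and Ifnar2. The kinases Jak1 and Tyk2 then activate a complex that holds Stat2 and Irf9 and binds the interferon-stimulated response element (ISRE) in the promoters of their targets. Interferon-gamma signals through Ifngr1 and Ifngr2 and acts mainly through the gamma-activated site (GAS). The products of the target genes sense viral nucleic acid, block viral translation, tag proteins with Isg15 or attack the membranes around pathogens, and several of them, such as Irf7 and Stat2, belong to the signalling chain itself.

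The data were bulk RNA-seq of whole liver from 4 control littermates, which the labels call WT, and 4 *Usp39*-HKO mice, all male. They were 5 weeks old and had been fasted for 16 h, and each mouse gave 1 library. The livers are called control 1 to 4 and *Usp39*-HKO 1 to 4, numbers that only name them. Levels are FPKM, the counts of a gene scaled to its exon length and to the total count of the liver, as the authors deposited them. Differences were tested with edgeR on the raw counts after TMM scaling, which removes a shift shared by most genes, and a gene is called higher or lower at a Benjamini-Hochberg adjusted p under 0.05 over all 14340 genes tested.

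Totals ran from 8589636 to 10418450 counts on genes per liver. Over all exons together, *Usp39* itself had 9.58 ± 0.706 FPKM (SD, n = 4) in control livers and 8.44 ± 0.286 FPKM in *Usp39*-HKO livers, and the groups did not overlap (log2 fold change -0.41 ± 0.11, SE, edgeR adjusted p = 0.0212). That sum does not show exon 2 on its own. The hepatocyte markers were abundant in every liver, with 18733 to 24872 FPKM summed over 10 genes such as *Alb*. One library stood apart: 13 genes of the exocrine pancreas summed to 845 FPKM in control 4 and to between 2.92 and 5.94 FPKM in each of the others, so results are also given without control 4.

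The promoters of the members were searched for 2 motifs of the pathway. RefSeq promoter windows, 250 bases before to 50 bases after the start site, were at hand for 32 of the 40 members and for 27025 genes in all. The core of the ISRE, searched as GAAANNGAAA on both strands with overlapping matches counted, lay in 16 of those 32 windows (50%) and in 3.99% of all windows. The GAS, searched as TTCNNNGAA, lay in 9 of the 32 (28.1%) and in 9.55% of all. A match describes the letters and is not a measured binding site. The 60-base stretches below (RefSeq, GRCm38.p6, written 5′ to 3′ along the gene's strand, ISRE cores in capitals) are shown for 3 called members, for *Ifit1*, *Ifit3* and *Ifit3b*, relatives of the called *Ifit2* that were not called themselves, and for *Isg15*, the member whose log2 CPM had the largest SD over the 8 livers.
Oas1a (chr5:120907526-120907585, minus strand, bases -60 to -1 from the start): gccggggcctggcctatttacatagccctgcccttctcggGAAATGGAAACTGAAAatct
Bst2 (chr8:71537565-71537624, minus strand, -152 to -93): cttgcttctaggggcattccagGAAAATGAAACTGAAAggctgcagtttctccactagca
Stat2 (chr10:128270251-128270310, plus strand, -247 to -188): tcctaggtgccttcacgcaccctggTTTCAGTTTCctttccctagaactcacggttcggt
Ifit1 (chr19:34640769-34640828, plus strand, -120 to -61): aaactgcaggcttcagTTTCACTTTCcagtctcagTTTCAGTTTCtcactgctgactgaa
Ifit3 (chr19:34583365-34583424, plus strand, -164 to -105): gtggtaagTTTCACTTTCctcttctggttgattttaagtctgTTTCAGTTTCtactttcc
Ifit3b (chr19:34607761-34607820, plus strand, -196 to -137): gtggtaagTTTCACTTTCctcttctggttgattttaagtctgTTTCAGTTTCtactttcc
Isg15 (chr4:156200856-156200915, minus strand, -97 to -38): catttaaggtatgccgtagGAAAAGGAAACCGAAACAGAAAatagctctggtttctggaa

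*Oas1a* and *Bst2* hold 2 overlapping cores each and *Isg15* holds 3, so that the GAAA blocks run on every 6 bases. *Ifit3* and its neighbour *Ifit3b* carry the same 60 letters. *Stat2* holds a single core. No core or GAS was found in the window of *Irf7*, and *Ifit2* and *Ifi47* had no core there. *Parp9*, the remaining called member, had no window in the RefSeq table. Members with a core were thus found among the genes called higher, among those called lower and among those not called.

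**Figure D1:**
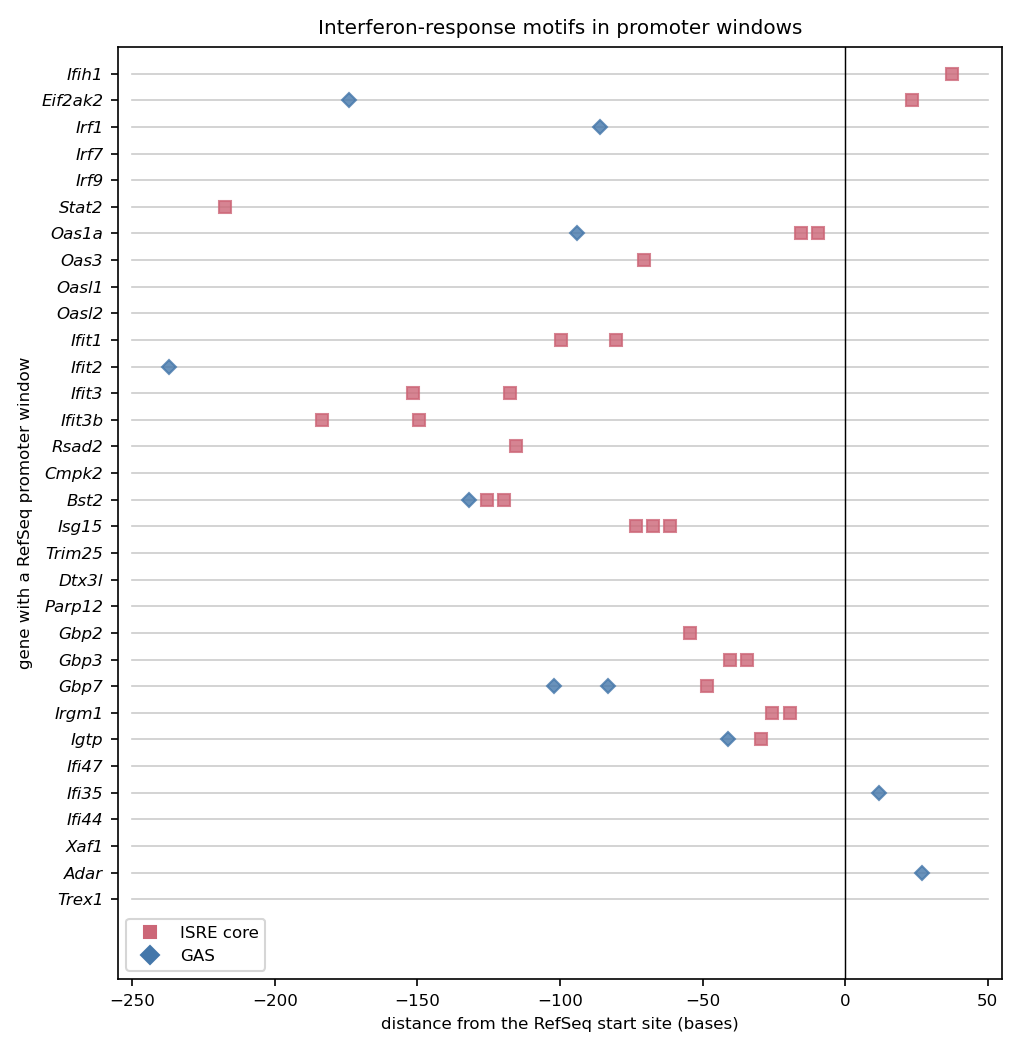
Positions of the ISRE core (squares) and the GAS (diamonds) in the promoter windows of 32 members, as the distance in bases from the RefSeq start site (vertical line), with 1 horizontal line per gene. Cores lie in 16 windows and GAS matches in 9, and the rows of neighbouring squares 6 bases apart belong to *Oas1a*, *Bst2*, *Isg15*, *Gbp3* and *Irgm1*.

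In these livers most members were expressed at low to moderate levels. *Bst2*, which encodes tetherin, a membrane protein that holds budding virus at the cell surface, had the highest mean FPKM of the 40, followed by *Trim25*, a ubiquitin ligase that acts on the RNA sensor Rig-I, and *Ifi27*, a small mitochondrial protein. *Bst2* had 79.1 to 133 FPKM in control livers, *Trim25* had 31.2 to 40.4 FPKM and *Ifi27* had 16.6 to 32.9 FPKM. At the other end, *Mx1*, a gene of the Mx GTPase family, had 0.373 to 0.979 FPKM over the 8 livers, and *Oas3* had 0.165 to 0.694 FPKM. FPKM is scaled per length, so these levels can be set beside each other, as in the plot of levels by liver.

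**Figure D2:**
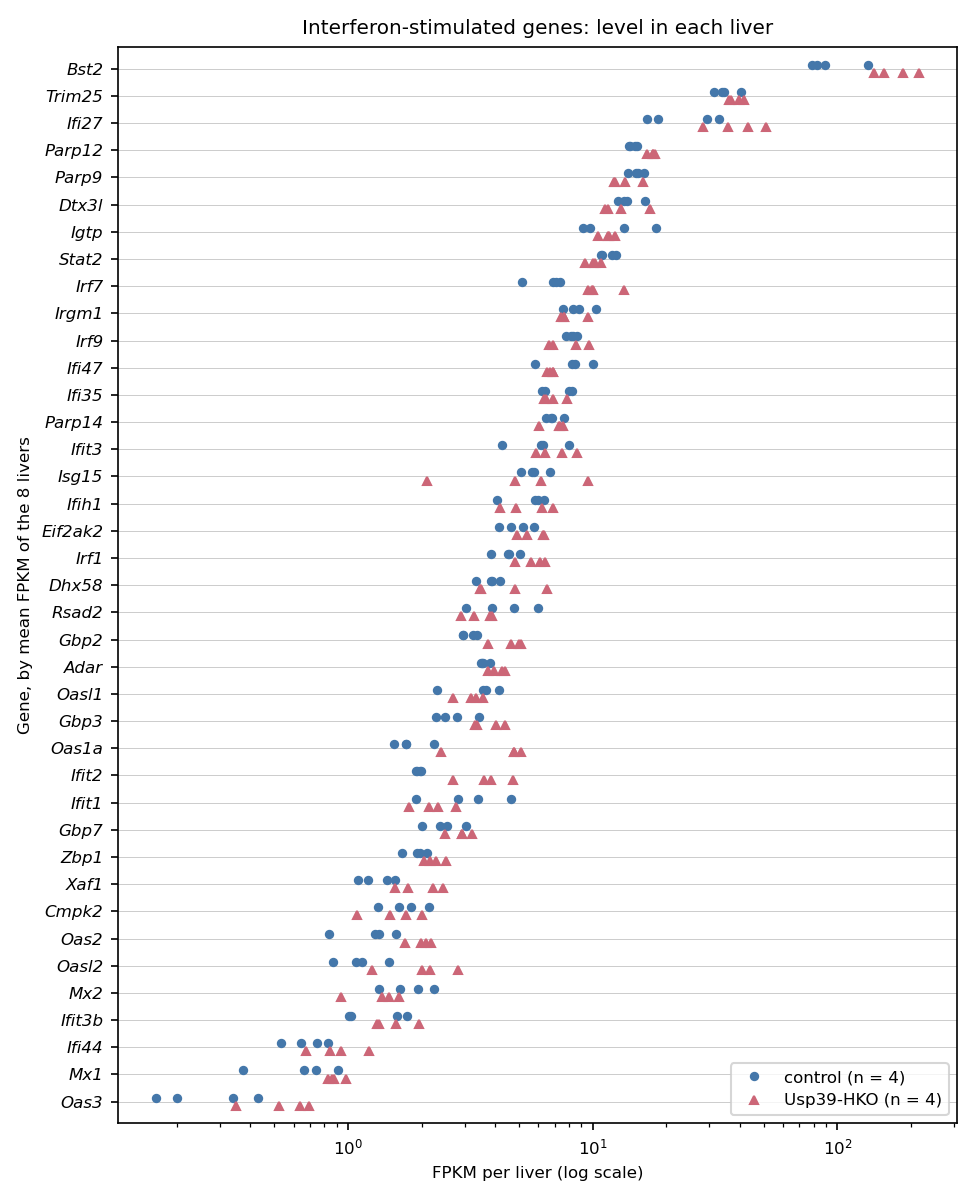
FPKM of the 39 members with a count, on a log scale, in each of 4 control livers (circles) and 4 *Usp39*-HKO livers (triangles), sorted by the mean of the 8. *Bst2* is highest at 79.1 to 215 FPKM and *Oas3* lowest at 0.165 to 0.694 FPKM, and for most genes the symbols of the genotypes interleave.

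Of the 40 members, 38 reached 0.5 FPKM in 4 or more livers and were tested. In *Usp39*-HKO livers 4 were higher, namely *Irf7*, *Oas1a*, *Ifit2* and *Bst2*, and 3 were lower, namely *Stat2*, *Parp9* and *Ifi47* (edgeR, adjusted p under 0.05). Their folds were modest, between 1.39 and 1.98 for the genes that rose and between 0.708 and 0.765 for those that fell. The 4 higher members are 10.5% of those tested, beside 10.9% of all genes called higher, and the 3 lower members are 7.89%, beside 11.6% of all genes called lower. The share of called members was therefore close to or below that of the whole transcriptome. The median log2 fold change of the 38 members was -0.03, with 16 above 0 and 22 below, beside -0.0015 for all genes tested. The 31 members not called lay between -0.73 and 0.62. At an unadjusted p under 0.05, 5 members had a positive and 8 a negative difference. The share of all genes at that p alone was not counted, here or below, so these counts show no lean of the members.

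Library scaling bears on these counts. The TMM factors were 0.911 to 0.940 in control livers and 1.01 to 1.19 in *Usp39*-HKO livers, and without them the median of all genes lay at 0.24 on the log2 scale. Scaled to total counts alone, 10 members were higher and 0 lower (12 and 0 at an unadjusted p under 0.05), beside 24.6% of all genes higher and 4.85% lower. With limma on log2(FPKM + 1), 7 members were higher and 0 lower, beside 21.1% and 4.44% of all genes. The share of all genes called higher thus also rose under these scalings. Median-ratio factors gave 4 higher and 2 lower members (11.2% and 11.2% of all genes), upper-quartile factors 4 and 1 (13.7% and 8.71%), and DESeq2 4 and 5 (12.1% and 12.7%). *Irf7*, *Oas1a*, *Ifit2* and *Bst2* were called higher under each of these. *Stat2* was called lower with TMM, median-ratio and upper-quartile factors and with DESeq2, but not on total counts or FPKM. Values below are relative to the shift that TMM removes, unless FPKM is named.

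Counted on FPKM, which keeps the shift, the 4 *Usp39*-HKO livers all lay above the 4 control livers for 7 members (18.4%, beside 23.9% of all genes), namely *Irf7*, *Oas1a*, *Oas2*, *Ifit2*, *Bst2*, *Parp12* and *Gbp2*, and below them for 0 (beside 4.81% of all genes). On CPM, counts scaled to a common library total, with TMM factors, *Irf7* and *Ifit2* did not overlap upwards (5.26% of members, beside 11.9%), and *Stat2*, *Parp9* and *Parp14* did not overlap downwards (7.89%, beside 12.9%). Under the cutoff of the study's methods, a log2 fold change beyond 0.5 in size at an unadjusted p under 0.05, the 4 higher members were *Oas1a*, *Oasl2*, *Ifit2* and *Bst2* (12.1% of all genes passed it upwards), and the 3 lower ones were *Ifit1*, *Mx2* and *Rsad2* (9.62% downwards).

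**Figure D3:**
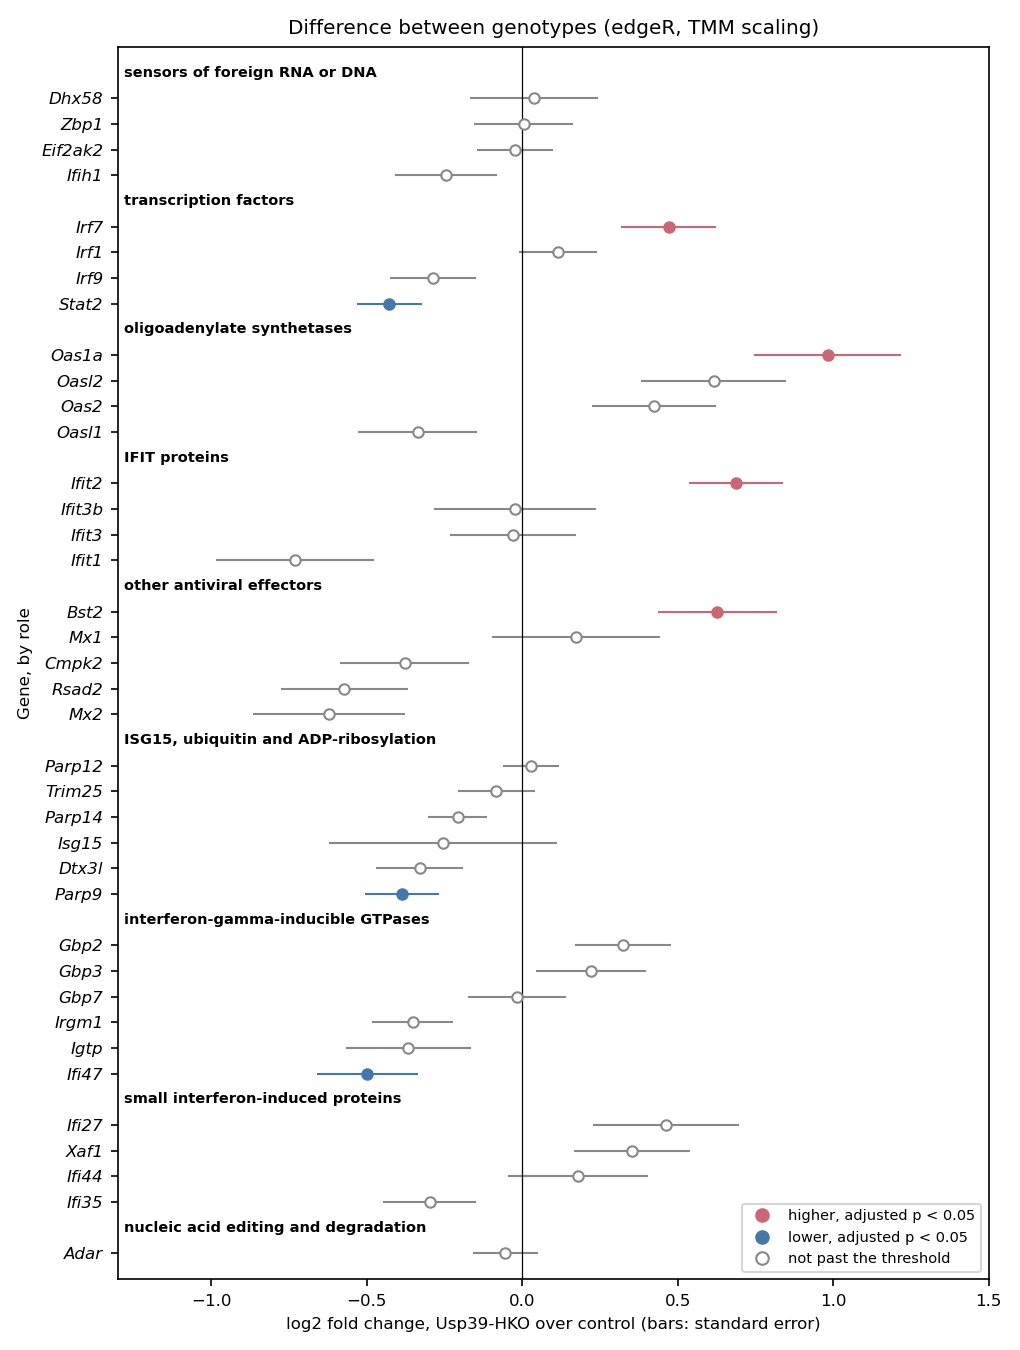
Log2 fold change (*Usp39*-HKO livers over control livers) of the 38 members tested, by role, with standard errors (edgeR, TMM scaling, n = 4 livers per genotype). Filled red points are the 4 members called higher, filled blue points the 3 called lower, and open points the 31 not called, and most roles hold points on both sides of 0.

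Of the 4 transcription factors tested, *Irf7* was higher, *Stat2* was lower, and *Irf9* and *Irf1* were not called. *Irf7*, which drives the interferon-alpha genes once interferon signalling has begun, had 6.86, 7.37, 5.15 and 7.09 FPKM in control livers and 9.59, 10.1, 13.5 and 9.97 FPKM in *Usp39*-HKO livers. Every *Usp39*-HKO liver lay above every control liver, and *Usp39*-HKO 3 was the highest. The log2 fold change was 0.47 ± 0.15 (SE, edgeR adjusted p = 0.0454). That call was close to the threshold, and it was lost without control 1 (adjusted p = 0.0806), control 3 (0.125), control 4 (0.0845), *Usp39*-HKO 2 (0.0559) or *Usp39*-HKO 3 (0.121), with a log2 fold change of 0.33 to 0.50.

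*Stat2*, the partner of Irf9 in the type I interferon complex, had 12.0, 10.9, 10.8 and 12.5 FPKM in control livers and 10.2, 10.8, 10.03 and 9.31 FPKM in *Usp39*-HKO livers. The groups met at 10.8 FPKM but did not overlap after TMM scaling. Its log2 fold change was -0.43 ± 0.10 (adjusted p = 0.0138), and it was called without each of the 8 livers in turn (adjusted p up to 0.0497, without control 4). *Irf9*, the DNA-binding member of the same complex, was at 8.24 ± 0.347 FPKM (SD, n = 4) and 7.91 ± 1.43 FPKM and was not called (-0.29 ± 0.14, adjusted p = 0.161). *Irf1*, which responds to interferon-gamma, was not called either (0.11 ± 0.13, adjusted p = 0.557).

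The oligoadenylate synthetases make the short messenger that activates RNase L when double-stranded RNA is present, and the Oasl proteins resemble them. *Oas1a* had the largest log2 fold change of the members tested. It had 1.73, 2.25, 1.54 and 1.73 FPKM in control livers and 2.40, 4.79, 4.78 and 5.09 FPKM in *Usp39*-HKO livers. The 4 knockout livers lay above the controls on FPKM, with *Usp39*-HKO 1 close to control 2, but the groups overlapped after TMM scaling. The difference was 0.98 ± 0.24 on the log2 scale, a 1.98-fold rise (adjusted p = 0.0134), and it was called without each liver in turn (adjusted p up to 0.0464). All of the longest *Oas1a* transcript matches *Oas1g* at an identity of at least 97%, so reads of these neighbours may have been split between them. *Oas1g*, a gene of the wider list, had a log2 fold change of 0.89 ± 0.35 and was not called (edgeR adjusted p = 0.0899).

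*Oasl2* (0.62 ± 0.23, adjusted p = 0.0789) and *Oas2* (0.42 ± 0.20, adjusted p = 0.155) were not called. *Oasl2* passed the threshold without *Usp39*-HKO 1, the knockout liver in which it was lowest (adjusted p = 0.0158). *Oasl1*, the member of the family with the highest mean FPKM, had 3.68, 2.32, 3.57 and 4.16 FPKM in control livers and 2.68, 3.57, 3.34 and 3.20 FPKM in *Usp39*-HKO livers. Its groups overlapped over most of their range, with a log2 fold change of -0.34 ± 0.19 (adjusted p = 0.235, and 0.0479 without control 2). *Oas3* was below the filter, with 10 to 30 counts in control livers and 24 to 50 in *Usp39*-HKO livers, and was not tested.

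The IFIT proteins bind viral RNA that lacks the host's cap methylation or block its translation, and their genes lie side by side on chromosome 19. *Ifit2* had 1.91, 1.901, 1.99 and 1.98 FPKM in control livers and 2.70, 3.60, 3.84 and 4.73 FPKM in *Usp39*-HKO livers. The control livers differed by less than 0.1 FPKM and every *Usp39*-HKO liver lay above them. The log2 fold change was 0.69 ± 0.15 (adjusted p = 0.00893), the lowest adjusted p of the members, and it was called without each liver in turn (adjusted p up to 0.0305).

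*Ifit1* had 3.40, 1.9, 2.81 and 4.63 FPKM in control livers and 1.78, 2.77, 2.33 and 2.14 FPKM in *Usp39*-HKO livers. Control 4, the library with pancreas RNA, was the highest and control 2 the lowest of the controls, and the groups overlapped. Its log2 fold change was -0.73 ± 0.25 and was not called (adjusted p = 0.0593), although it passed the threshold with DESeq2 (adjusted p = 0.0388) and without control 2 (0.014), and lay further from it without control 4 (0.199). *Ifit3*, the most abundant of the family, had 6.18, 4.28, 6.27 and 7.98 FPKM in control livers and 6.37, 7.48, 8.65 and 5.86 FPKM in *Usp39*-HKO livers. These values interleaved, and neither *Ifit3* (-0.03 ± 0.20, adjusted p = 0.937) nor *Ifit3b* (-0.02 ± 0.26, adjusted p = 0.963) was called. These copies share 97.4% of the longest *Ifit3* transcript, so their levels are uncertain against each other.

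**Figure D4:**
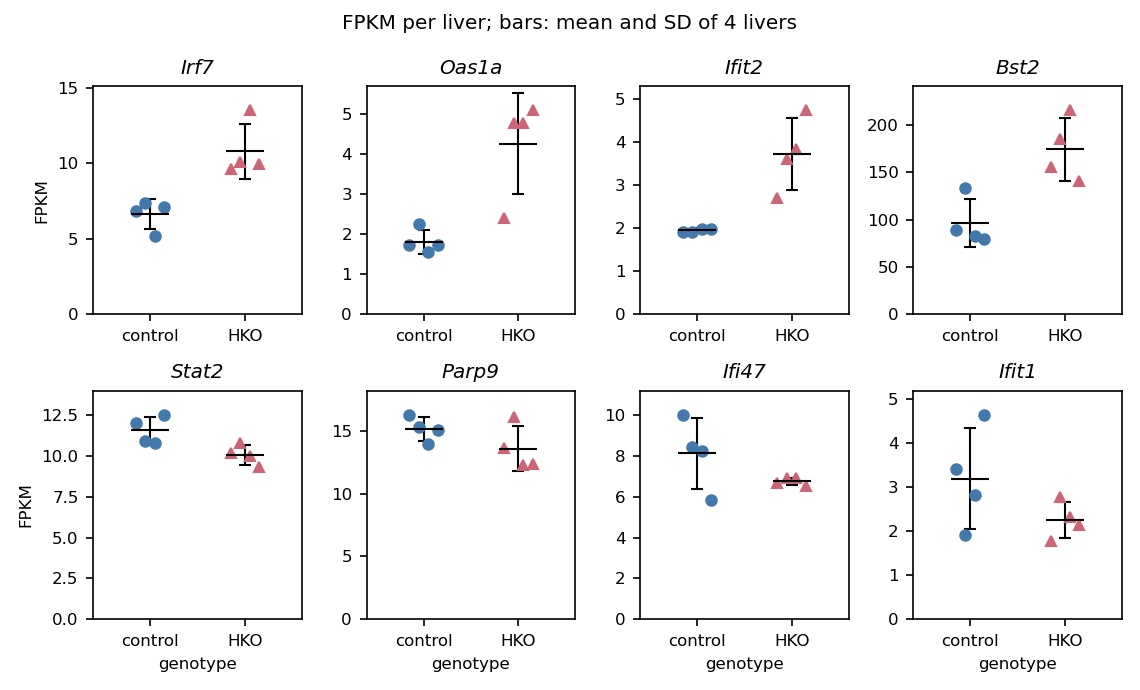
FPKM of the 7 called members and of *Ifit1*, which was not called, in 4 control livers (circles) and 4 *Usp39*-HKO livers (triangles), with the mean and SD of each group in black. For *Irf7*, *Oas1a*, *Ifit2* and *Bst2* the triangles lie above the circles, while for *Stat2*, *Parp9*, *Ifi47* and *Ifit1* the means differ by less and the symbols overlap or touch.

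Among the other antiviral effectors, *Bst2* was the gene called. It had 89.3, 133, 82.9 and 79.1 FPKM in control livers and 155, 185, 215 and 141 FPKM in *Usp39*-HKO livers. On FPKM the highest control liver, control 2, lay just below the lowest knockout liver, and *Usp39*-HKO 3 was the highest of all. After TMM scaling the groups overlapped. The log2 fold change was 0.63 ± 0.19 (adjusted p = 0.0364). It was not past the threshold without control 1 (adjusted p = 0.0906), control 3 (0.106), control 4 (0.109), *Usp39*-HKO 2 (0.0696) or *Usp39*-HKO 3 (0.0995), and its log2 fold change then ran from 0.50 to 0.60.

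*Rsad2*, which encodes viperin, an enzyme that makes a chain-terminating nucleotide, had 4.77, 3.03, 3.87 and 5.96 FPKM in control livers and 3.87, 3.82, 3.26 and 2.90 FPKM in *Usp39*-HKO livers. The groups overlapped, and *Rsad2* was not called (-0.57 ± 0.20, adjusted p = 0.065), although it passed with DESeq2 (0.0481) and without control 2 (0.0193). Its neighbour *Cmpk2*, a mitochondrial nucleotide kinase, had a log2 fold change of -0.38 ± 0.21 (adjusted p = 0.216). The Mx proteins are dynamin-like GTPases. *Mx2* had a log2 fold change of -0.62 ± 0.24 (adjusted p = 0.09) and *Mx1* of 0.17 ± 0.27 (adjusted p = 0.692). *Mx2* is annotated as a polymorphic pseudogene.

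Isg15 is a ubiquitin-like protein that is joined to other proteins, and Parp9 and Dtx3l form a complex that couples ADP-ribosylation to ubiquitin. *Parp9* was lower, with 16.2, 15.3, 14.0 and 15.1 FPKM in control livers and 13.6, 16.1, 12.2 and 12.3 FPKM in *Usp39*-HKO livers. *Usp39*-HKO 2 lay within the range of the controls, while the other knockout livers lay below it. The log2 fold change was -0.39 ± 0.12 (adjusted p = 0.0367), and the call was kept without *Usp39*-HKO 1 (0.0444) or *Usp39*-HKO 2 (0.016) and lost without any of the other livers, where the adjusted p was 0.0594 without control 2, 0.0639 without control 3, 0.0777 without control 4, 0.0942 without *Usp39*-HKO 3, 0.0994 without *Usp39*-HKO 4 and 0.1 without control 1. It was also lost with upper-quartile factors (0.071). *Dtx3l*, which lies head to head with *Parp9* and overlaps it on the opposite strand, was not called (-0.33 ± 0.14, adjusted p = 0.115).

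*Isg15* had 5.11, 5.74, 5.63 and 6.69 FPKM in control livers and 4.83, 6.14, 9.54 and 2.10 FPKM in *Usp39*-HKO livers. The controls were close together, whereas the knockout livers held both the highest and the lowest value of the 8. It was not called (-0.25 ± 0.37, adjusted p = 0.664). *Trim25* had 31.2, 40.4, 33.6 and 34.3 FPKM in control livers and 41.7, 36.9, 39.6 and 36.1 FPKM in *Usp39*-HKO livers, which interleaved (-0.08 ± 0.12, adjusted p = 0.675). *Parp12* did not overlap on FPKM (14.6 ± 0.559 and 17.5 ± 0.582, SD, n = 4), but its log2 fold change after TMM scaling was 0.03 ± 0.09 (adjusted p = 0.851). *Parp14* had a log2 fold change of -0.21 ± 0.10 (adjusted p = 0.144).

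The interferon-gamma-inducible GTPases comprise the Gbp proteins, which coat and break the vacuoles of pathogens, and the Irg proteins, which prepare those membranes. *Ifi47*, an Irg family gene, was the only one called of the 6 tested. It had 9.997, 8.44, 8.24 and 5.82 FPKM in control livers and 6.70, 6.90, 6.91 and 6.53 FPKM in *Usp39*-HKO livers. The knockout livers were within 0.4 FPKM of each other, and control 4 lay below all of them while the other controls lay above. Its log2 fold change was -0.50 ± 0.16 (adjusted p = 0.0476). Without control 4 it was called (-0.64, adjusted p = 0.0145). Without any single one of the other 7 livers it was not, with adjusted p between 0.0621 without *Usp39*-HKO 1 and 0.142 without control 1, and it was also not called with median-ratio (0.0507) or upper-quartile factors (0.0773).

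*Igtp*, the gene of this group with the highest mean FPKM, had 13.4, 18.2, 9.73 and 9.16 FPKM in control livers and 12.3, 11.6, 10.5 and 11.6 FPKM in *Usp39*-HKO livers. The control range enclosed the knockout range, and *Igtp* was not called (-0.37 ± 0.20, adjusted p = 0.218). *Irgm1* was not called (-0.35 ± 0.13, adjusted p = 0.0713). *Gbp2* did not overlap on FPKM (3.14 ± 0.207 and 4.62 ± 0.619, SD, n = 4) but was not called after TMM scaling (0.32 ± 0.15, adjusted p = 0.159), nor were *Gbp3* (0.22 ± 0.18, adjusted p = 0.405) and *Gbp7* (-0.02 ± 0.16, adjusted p = 0.951).

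Of the sensors, edgeR called 0 of 4, with 0 at an unadjusted p under 0.05 and 0 by DESeq2. *Ifih1*, which encodes Mda5, a sensor of long double-stranded RNA, had 6.31, 4.05, 5.96 and 5.83 FPKM in control livers and 4.18, 6.86, 4.85 and 6.23 FPKM in *Usp39*-HKO livers. The values interleaved (-0.24 ± 0.16, adjusted p = 0.317). Its relative *Dhx58*, the nucleic acid sensor *Zbp1* and *Eif2ak2*, the kinase PKR that halts translation, had log2 fold changes between -0.02 and 0.04.

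The small interferon-induced proteins also had 0 of 4 called, with 0 at an unadjusted p under 0.05 and 0 by DESeq2. *Ifi27* had 29.3, 32.9, 18.6 and 16.6 FPKM in control livers and 28.2, 43.0, 51.2 and 35.9 FPKM in *Usp39*-HKO livers. *Usp39*-HKO 1 lay below control 1 and control 2, and the difference was not called (0.46 ± 0.24, adjusted p = 0.184). *Xaf1*, *Ifi44* and *Ifi35* had log2 fold changes of 0.35, 0.18 and -0.30. *Adar*, an enzyme that edits adenosine in double-stranded RNA, had 3.54, 3.58, 3.48 and 3.82 FPKM in control livers and 4.40, 3.72, 3.95 and 4.25 FPKM in *Usp39*-HKO livers, and was not called (-0.05 ± 0.11, adjusted p = 0.755). *Trex1*, a DNA exonuclease, was listed at 0 counts in all 8 livers. All of its exon bases lie inside exons of *Atrip* on the same strand, and how reads on overlapping exons were counted is not given in the sources used here, so no level was drawn from that 0.

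Members were also compared liver by liver. Relative to the mean of the 8 livers on the TMM scale, the median member lay at 0.10 in control 1, the highest, and at -0.13 in *Usp39*-HKO 4, the lowest, while the median of all genes was within 0.02 of 0 in each liver. Control 1 had the highest value of the 8 livers for 10 of 38 members, and *Usp39*-HKO 4 the lowest for 12. Among the knockout livers, *Usp39*-HKO 4 had the lowest value for 20 of the 38 members, *Isg15*, *Mx2* and *Stat2* among them, and the highest for 2, of which *Ifit2* was one. These counts were made for members only. How often all genes were highest or lowest in these livers was not counted, so a pattern particular to the members is not shown. The SD of log2 CPM within a genotype had a median over members of 0.226 in control livers and 0.228 in *Usp39*-HKO livers, beside 0.190 and 0.222 for all genes tested.

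**Figure D5:**
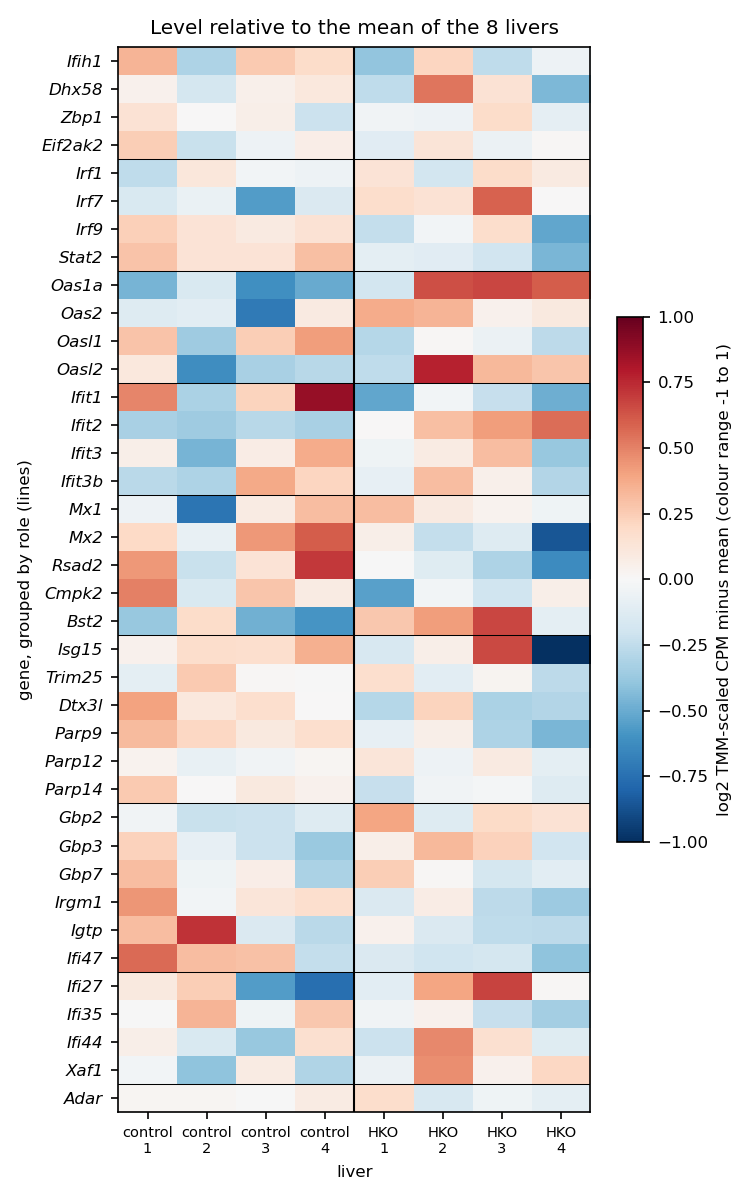
Log2 CPM with TMM factors of the 38 members tested in each liver, minus the gene's mean over the 8 livers (red above, blue below, colours end at -1 and 1), with control livers left of the black line and horizontal lines between roles. *Oas1a*, *Ifit2*, *Irf7* and *Bst2* are mostly blue or pale in control livers and mostly red or pale in *Usp39*-HKO livers, *Stat2* and *Parp9* are red in control livers and mostly blue in *Usp39*-HKO livers, and *Isg15* is red in *Usp39*-HKO 3 and blue in *Usp39*-HKO 4.

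The ligands of the pathway were nearly absent from the counts. Of 21 interferon genes, 19 were listed at 0 in all 8 livers, which allows 0.288 to 0.349 CPM per liver at 3 counts. *Ifnk* had 2 to 4 counts in control livers and 0 to 3 in *Usp39*-HKO livers, and *Ifng* had 1 count in 1 knockout liver. None was tested, and a difference in interferon transcripts was not detectable at this depth.

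The receptors did change, in opposite directions. The interferon-gamma receptor genes were both higher in *Usp39*-HKO livers. *Ifngr1*, the ligand-binding chain, had 12.1 to 13.8 FPKM in control livers and 21.4 to 31.7 FPKM in *Usp39*-HKO livers (0.63 ± 0.11, adjusted p = 0.00357), and *Ifngr2* rose by 0.37 ± 0.11 (adjusted p = 0.034). For type I interferon, *Ifnar2* was lower (-0.36 ± 0.10, adjusted p = 0.0247) and *Ifnar1* was not called (0.09 ± 0.10, adjusted p = 0.58). *Il10rb*, a chain of the interferon-lambda receptor and of the IL-10 receptor, was higher (0.54 ± 0.17, adjusted p = 0.0403). Its partner *Ifnlr1* was below the filter, with 1 to 5 counts in control livers and 15 to 81 in *Usp39*-HKO livers. The call of *Ifngr1* held without each liver in turn (adjusted p up to 0.0172). *Ifngr2* was not called without control 2, 3 or 4 or *Usp39*-HKO 2, 3 or 4 (adjusted p of 0.059 to 0.107). *Il10rb* was not called without control 1, 3 or 4 or *Usp39*-HKO 2, 3 or 4 (0.0678 to 0.116). *Ifnar2* was not called without control 3 or 4 or *Usp39*-HKO 2 or 4 (0.0541 to 0.0861), with upper-quartile factors (0.0509) or on total counts (0.355), where the shift is kept.

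Of the 53 pathway genes measured, 29 were tested, of which 7 were higher (24.1%, beside 10.9% of all genes) and 4 lower (13.8%, beside 11.6%). On total counts 10 were higher and 0 lower, beside 24.6% and 4.85% of all genes. Besides the receptors, the higher ones were *Tlr7* (1.13 ± 0.25, adjusted p = 0.0093) and *Tlr9* (0.91 ± 0.22, adjusted p = 0.0144), which sense nucleic acid in endosomes, *Tmem173*, which encodes Sting (0.73 ± 0.20, adjusted p = 0.0223), and *Irf5* (0.60 ± 0.14, adjusted p = 0.0137). The lower ones were the RNA sensor *Ddx58*, which encodes Rig-I (-0.54 ± 0.15, adjusted p = 0.0228), the kinase *Tyk2* (-0.38 ± 0.12, adjusted p = 0.0445) and *Irf2* (-0.42 ± 0.11, adjusted p = 0.0176), a factor that competes with Irf1. On total counts none of these 3 was called (adjusted p of 0.178 for *Ddx58*, 0.482 for *Tyk2* and 0.274 for *Irf2*). Without single livers, *Tlr7* and *Tlr9* stayed called, with adjusted p up to 0.0337 and 0.0493. *Tmem173* was not called without control 1 or 4 or *Usp39*-HKO 4 (0.0508 to 0.0699), nor *Irf5* without control 3 (0.05), *Ddx58* without control 1, 3 or 4 or *Usp39*-HKO 3 or 4 (0.0532 to 0.076), or *Irf2* without control 3 or 4 or *Usp39*-HKO 4 (0.0511 to 0.0634). *Tyk2* was called without *Usp39*-HKO 2 (0.0142) and lost its call without any one of the others (0.0565 to 0.111). *Usp18*, which encodes a negative regulator that binds Ifnar2, was not called (0.23 ± 0.15, adjusted p = 0.32).

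A wider list of 89 further interferon-stimulated genes, of which 81 were tested and 5 are also pathway genes, had 13 higher (16.0%, beside 10.9% of all genes) and 7 lower (8.64%, beside 11.6%), with a median log2 fold change of 0.07. On total counts 28 of the 81 were higher and 1 lower, beside 24.6% and 4.85% of all genes. The largest rises were *Ifi27l2b* (2.39 ± 0.42, adjusted p = 0.00316), *Ly6a*, a surface antigen of blood and stem cells (1.19 ± 0.21, adjusted p = 0.00313), and *Slfn8* (0.93 ± 0.21, adjusted p = 0.0104). The largest falls were *Apol9b* (-1.04 ± 0.24, adjusted p = 0.0108), *Gm4951* (-0.78 ± 0.21, adjusted p = 0.0234) and *Ddx58*. *Gm4951* was not called without control 1 or 3 or *Usp39*-HKO 4 (adjusted p of 0.0632 to 0.0712) or on total counts (0.0781), while the calls of *Ifi27l2b*, *Ly6a*, *Slfn8* and *Apol9b* held without each liver in turn. With TMM scaling both directions were present, as among the 40 members, but on total counts 0 members were lower.

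Markers of other liver cells moved with the genotype as well. Of 11 Kupffer cell and macrophage markers, 9 rose and 0 fell in *Usp39*-HKO livers (edgeR, 10 and 0 at an unadjusted p under 0.05, 9 and 0 by DESeq2), and their summed level was 455 to 637 FPKM in control livers and 855 to 1218 FPKM in *Usp39*-HKO livers. *Clec4f* was higher (0.35 ± 0.10, adjusted p = 0.0336) and *Adgre1* was not called (0.36 ± 0.15, adjusted p = 0.105). Of 5 general leukocyte markers 4 were higher, with summed levels of 39.2 to 44.8 and 56.7 to 89.9 FPKM, and 2 of 5 tested monocyte and dendritic cell markers were higher (3.87 to 4.65 and 5.73 to 10.6 FPKM). Stellate cell markers were higher for 7 of 8 (76.5 to 87.2 and 120 to 237 FPKM) and cholangiocyte markers for 5 of 5 tested (26.5 to 29.0 and 64.8 to 288 FPKM). Of all genes, 10.9% were called higher, and 7.11% without control 4. Without control 4, 6 Kupffer cell and macrophage, 1 leukocyte, 2 monocyte and dendritic cell, 6 stellate cell and 4 cholangiocyte markers were higher. Without control 3 these counts were 5, 1, 2, 6 and 4. Without *Usp39*-HKO 4, 2 leukocyte markers were higher.

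Of the remaining lists, hepatocyte markers were lower for 4 of 10 (summed level 21110.5 to 23767 and 18733 to 24872 FPKM), sinusoidal endothelium for 2 of 8 (125 to 142 and 129 to 137 FPKM) and red cells for 5 of 5 tested (369 to 772 and 155 to 365 FPKM). Of all genes, 11.6% were called lower. On total counts 0 of 10 hepatocyte markers were lower, and sinusoidal endothelium had 2 higher and 1 lower. Without control 3, 0 were lower in either of these 2 lists. Red cell markers were lower for 5 of 5 in both settings. For lymphocytes and NK cells edgeR called 0 of 8 (0 at an unadjusted p under 0.05, 0 by DESeq2, 7.14 to 8.09 and 7.86 to 10.5 FPKM), and for neutrophils 0 of 6 (1 lower at an unadjusted p under 0.05, 0 by DESeq2, 25.0 to 60.5 and 14.9 to 92.2 FPKM). No defining marker was at 0 in every liver. In bulk liver a change in the number of cells of a type and a change in RNA per cell cannot be told apart. The part of these markers in the differences of *Bst2*, *Irf7*, *Oas1a*, *Ifit2* and the receptors was not tested. Nor was it tested for the other called genes of the pathway and the wider list, such as *Tlr7*, *Tlr9*, *Irf5*, *Tmem173* and *Ly6a*.

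Without control 4, *Oas1a* (0.95, adjusted p = 0.0443) and *Ifit2* (0.69, adjusted p = 0.0305) were called higher and *Stat2* (-0.40, adjusted p = 0.0497) and *Ifi47* lower, so that 2 members were higher and 2 lower, beside 7.11% and 7.13% of all genes. *Oas1a*, *Ifit2* and *Stat2* were the members called without each of the 8 livers in turn.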

How the data were processed

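RNA-seq of 8 livers (4 *Usp39*-HKO, 4 control) was analysed from one deposited table. RNA was extracted with TRIzol, and libraries were made with a NEB Next Ultra kit and read in pairs on an Illumina NovaSeq. According to the submitters' processing notes and the methods, the authors trimmed reads (Trim Galore 0.6.1, FastQC 0.11.9), mapped them to mm10 with HISAT2 and deposited raw counts per gene from featureCounts. The annotation release, strand setting and treatment of multi-mapping or overlapping reads are not given in the sources used here. The authors also deposited FPKM, and counts, exon length and the total count of the liver gave all of it back within 0.1%. The table's other columns, deposited by the authors from DESeq2, hold a normalized mean signal, log2 fold changes, standard errors and Wald statistics as a score, p-values and adjusted p-values, and none of these were used.

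The table held 55699 entries for 55385 identifiers, and the 314 repeats held the same values and were read once. Genes that reached 0.5 FPKM in 4 or more livers were tested with edgeR 4.0.16 (quasi-likelihood, TMM, genotype as the only term, R 4.3.3, Benjamini-Hochberg adjustment, two-sided), after the procedure had been tested on simulated counts. Those counts held no shift between genotypes, so they could not check how the scaling handles one. Standard errors were derived from the F statistic of each log2 fold change. A floor of 3 counts equals 0.288 to 0.349 CPM and covers counting error only, since reads without molecular identifiers are not independent molecules. Livers of one genotype differed by more than counting noise, so none was treated as a repeat of another. Labels name no batch, and none was tested.

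The members and lists were chosen with earlier results of these data known, so counts over them are descriptions. Values per liver are given for each called member and for the member with the highest mean FPKM of each role. *Ifit1*, *Rsad2*, *Isg15*, *Irf9*, *Oasl2*, *Oas3* and *Trex1*, and the ratios in the closing section, were picked after their values were seen. Of the pathway, each ligand with a count, the receptors, *Usp18* and called genes are named, apart from an item not reported here, and of the wider list the 3 largest called rises and falls. Of each marker list, counts and summed FPKM are given. Coordinates, exons and overlaps are from GENCODE vM21 (GRCm38, the mm10 assembly), which holds all 40 members and 55144 of the identifiers. Shared sequence was found with BLAST+ 2.17.0+ (at least 150 bases at 97% identity), and promoters are from RefSeq (GRCm38.p6). Alternatives were other scalings, filters of 1 count in any liver or a mean FPKM of at least 5, DESeq2 1.42.0, limma 3.58.1 on log2(FPKM + 1) and log2(FPKM + 0.1), the study's cutoff, and each liver left out in turn.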

Additional observations from a re-analysis of the deposited data

Results flagged for a closer look

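In 4 of 78 groups of 4 livers, the highest or lowest liver stood further from the other 3 than Dixon's 95% limit allows, and chance gives about 1 in 20. All 4 groups were *Usp39*-HKO livers. *Irf7* was at 13.5 FPKM in *Usp39*-HKO 3 and at 9.59 to 10.1 FPKM in the other knockout livers. *Oas1a* was at 2.40 FPKM in *Usp39*-HKO 1 and at 4.78 to 5.09 FPKM in the others. *Parp14*, likewise in *Usp39*-HKO 1, was at 6.01 FPKM, against 7.32 to 7.55 FPKM elsewhere in the group. *Irgm1* was at 9.54 FPKM in *Usp39*-HKO 2 and at 7.40 to 7.66 FPKM in the others. Without *Usp39*-HKO 3 the call of *Irf7* was lost (edgeR adjusted p = 0.121), and without *Usp39*-HKO 1 that of *Oas1a* had an adjusted p of 0.00144.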

How the results depend on the processing

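With counts scaled to totals alone, 10 members were higher and 0 lower (0 lower at an unadjusted p under 0.05), the wider list had 28 higher and 1 lower, the pathway 0 lower, and the median of the members was 0.20 beside 0.24 for all genes. limma on log2(FPKM + 1) gave 7 and 0 members, 25 and 1 genes of the wider list, 0 lower pathway genes and a median of 0.15, and limma on log2(FPKM + 0.1) gave 7 and 0, 26 and 1, 0 and 0.21. These settings keep the shift that TMM removes. Of all genes, 24.6% were higher and 4.85% lower on total counts, and 21.1% and 4.44% with limma on log2(FPKM + 1). Upper-quartile factors left 1 lower member, 4 lower genes of the wider list and 2 of the pathway. Without a filter, as with DESeq2, 5 members were lower. A mean FPKM of at least 5 left 2 higher and 1 lower members of 19 tested, 2 lower genes of the wider list, 4 higher and 2 lower pathway genes, and a median of -0.16. Shares of all genes were not counted for these 2 filters or for limma on log2(FPKM + 0.1). The study's cutoff gave 4 lower genes of the wider list and 1 of the pathway. On CPM with TMM factors, 2 members lay wholly higher and 3 wholly lower, against 7 and 0 on FPKM.

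Single genes were followed across settings only where they were named by a rule or picked. Among these genes, not among all members, some log2 fold changes near 0 turned positive. On total counts these were *Ifih1* (0.0013), *Ifit3* (0.20), *Trim25* (0.15) and *Adar* (0.18), and with upper-quartile factors *Ifit3* (0.036) and *Adar* (0.012). *Ifit3* was at 0.046 with a mean FPKM of at least 5. limma on log2(FPKM + 1) gave 0.19 for *Ifit3*, 0.14 for *Trim25* and 0.14 for *Adar*, and on log2(FPKM + 0.1) 0.21, 0.15 and 0.17. Where no shift or change in the genes tested accounts for a difference, the cause was not tested.

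Leaving out each liver in turn gave 2 to 5 higher and 1 to 5 lower members, a median of -0.08 to 0.03, 8 to 18 higher and 1 to 9 lower genes of the wider list, 4 to 7 higher and 0 to 5 lower pathway genes, and 7 to 12 members wholly higher and 0 to 2 wholly lower on FPKM. The share of all genes is given for the fit without control 4 only, at 7.11% higher and 7.13% lower, against 10.9% and 11.6% with all livers. These ranges therefore do not show whether the members moved apart from all genes. Within the fits that left out 1 liver, *Ifit3* ran from -0.17 to 0.11 and *Isg15* from -0.63 to 0.040. No paired analysis was possible because the labels give the livers no shared replicate numbers. With 4 livers per genotype and 8589636 to 10418450 counts each, differences of low members such as *Mx1* or *Oas3* carry wide errors.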

Other observations

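Ratios between members within a liver do not depend on library scaling. They were chosen after the values were seen and carry no test. The ratio of *Ifit2* to *Ifit1* FPKM was 0.562, 1.001, 0.708 and 0.428 in control livers and 1.51, 1.30, 1.65 and 2.204 in *Usp39*-HKO livers, so that *Ifit2* exceeded *Ifit1* in every knockout liver, lay below it in 3 controls and was level with it in control 2. The ratio of *Irf7* to *Stat2* was 0.476 to 0.674 in control livers and 0.929 to 1.35 in *Usp39*-HKO livers, and that of *Irf7* to *Irf9* was 0.660 to 0.903 and 1.18 to 1.51. *Bst2* to *Stat2* ran from 6.32 to 12.2 and from 15.1 to 21.5. These ratios did not overlap between genotypes, while *Ifit2* to *Ifit3* did (0.248 to 0.444 and 0.424 to 0.806). Each ratio sets a member called higher over one with a negative log2 fold change, so separation was favoured by that choice. The ratios restate the same values, and no share of separated ratios among other gene pairs was computed.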
